A study of Caenorhabditis elegans with 6 samples.

Results

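RNA interference (RNAi) against cav-1 was compared with the empty vector in whole Caenorhabditis elegans worms. cav-1 encodes a caveolin. The comparison holds 4 of the 6 libraries of the series, namely 2 of cav-1 RNAi and 2 of the empty vector. The members are the genes with a read in these 4 libraries, 20247 of the 46748 genes in the table, of which 14378 passed the filter on low counts and were tested. All worms were of the strain CF512, grown from eggs for 48 hours at 25 °C on bacteria that carried either the empty vector or an RNAi construct, a regime used to make them sterile, and were collected whole on day 1 of adulthood. The remaining pair of libraries came from worms on daf-2 RNAi. Each of the 2 biological repeats held 1 library of every kind, so libraries were compared within a repeat, and p-values measure only the spread between these few samples.

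Caveolins are small integral membrane proteins that bind cholesterol and form the coat of caveolae, flask-shaped pits of the plasma membrane that concentrate sphingolipids and signalling receptors. C. elegans has a pair of caveolin genes. CAV-1 is known from the germ line, where it acts in meiotic progression together with Ras signalling, and from neuromuscular signalling, and CAV-2 is known from lipid trafficking in the intestine. daf-2 encodes the insulin/IGF-1 receptor. When the receptor is less active, the FOXO transcription factor DAF-16 enters the nucleus, raises the genes called class 1 and is associated with lower levels of the genes called class 2. Whole worms mix all tissues, so fewer cells of a type and less RNA per cell cannot be told apart.

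Library totals ran from 25474328 to 32886440 reads counted to genes. Levels are given as CPM, the reads of a gene relative to its library's total, after scaling by the trimmed mean of M values (TMM), and differences are on the log2(CPM + 1) scale, which understates changes of genes at low level. Libraries of the same repeat resembled each other. The deviations of the empty vector and cav-1 RNAi libraries from their group means had a correlation of 0.807 within a repeat over 14378 genes. Transcripts of intestine, muscle, neurons, hypodermis and oocytes were all present, as a whole worm would hold, while 6 of the 67 sperm genes in the table passed the filter, with a summed level of 14.64 to 16.02 CPM in the 4 libraries.

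The targeted gene was measured first. cav-1 (WBGene00000301, chromosome IV, 9772510 to 9773559 on the plus strand in WBcel235, a transcript of 925 nt) stood at 178 and 184 CPM on the empty vector in repeats 1 and 2, and at 6.13 and 1.84 CPM on cav-1 RNAi. These levels rest on 4545 and 4999 reads against 207 and 51 reads. Both cav-1 RNAi libraries lay far below both empty vector libraries. The remaining level was 3.45% of the empty vector in repeat 1 and 1.00% in repeat 2. cav-1 fell by 5.34 on the log2 scale (SE 0.33, n = 2 pairs, adjusted p = 9.43e-05 by limma with Benjamini-Hochberg adjustment), with log2 ratios of -4.65 and -6.03 in the 2 repeats. Without the cav-1 RNAi library of repeat 1 the adjusted p was 0.0567, and without the repeat in the model it was 0.7503, with the same fold change.

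The other genes of the membrane-scaffold families did not pass the test. cav-2, the second caveolin, stood at 9.81 and 3.46 CPM on the empty vector and at 5.6 and 4.76 CPM on cav-1 RNAi. Its level was lower in repeat 1 and higher in repeat 2, with a log2 difference of -0.17 (SE 0.30, adjusted p = 0.982 by limma). Of the 13 caveolin, stomatin and prohibitin genes tested, cav-1 was the one called, and the median of the list was -0.08 against -0.01 over all genes tested. The log2 ratio of stl-1, a stomatin-like gene, was -1.22 in repeat 1 and 0.01 in repeat 2. daf-2 itself stood at 42.6 and 188 CPM on the empty vector and at 57.9 and 214 CPM on cav-1 RNAi, so the repeats differed more than the treatments, and the log2 difference was 0.31 (SE 0.39, adjusted p = 0.977 by limma). On daf-2 RNAi, cav-1 stood at 42.7 and 21.2 CPM, between the other groups, and cav-1 RNAi minus daf-2 RNAi was -2.79 on the log2 scale for it (adjusted p = 0.00106 by limma).

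Across all 14378 genes tested, cav-1 was the only gene called at an adjusted p under 0.05 by limma, 0.00696% of the genes. At an unadjusted p under 0.05, 397 genes (2.76%) lay lower and 176 (1.22%) higher under cav-1 RNAi, 573 together, where 5% of the tested genes would be 719. Other processing gave other counts, from 0 genes without the repeat in the model to 20 with median-of-ratios size factors (4 higher, 0.0278%, and 16 lower, 0.111%), 64 with TMM factors taken over all genes (18 higher, 0.125%, and 46 lower, 0.32%) and 82 with the 4 libraries alone (21 higher). Fits with 1 library left out have 1 residual degree of freedom. All but the fit without the cav-1 RNAi library of repeat 1 took each gene's spread from a trend over all genes. Counts of called genes from these fits mix the missing library with the changed estimate of spread and are not given.

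The 2 repeats ordered the genes differently. Over all genes tested, the log2 ratios of cav-1 RNAi to empty vector in repeats 1 and 2 had a Pearson correlation of -0.05 and a Spearman correlation of -0.12, across genes of 4 libraries that share repeat and depth. The SD of the ratios was 0.50 in repeat 1 and 0.34 in repeat 2. In repeat 1, 578 genes were at least 2-fold lower and 145 at least 2-fold higher, and in repeat 2 these numbers were 99 and 137. Genes that were lower in both repeats numbered 3472 (24.1%), and genes higher in both 2986 (20.8%). At least 2-fold lower in both repeats were 34 genes (0.236%), at least 2-fold higher in both were 8 (0.0556%), and 17 passed 2-fold in opposite directions.

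Transcript length moved with the ratios of repeat 1. Transcripts of up to 500 nt had a median log2 ratio of -0.20 there and those of 2001 to 3000 nt had 0.16, whereas the same classes had -0.03 and 0.02 in repeat 2. The 34 genes at least 2-fold lower in both repeats had a median transcript length of 709 nt, against 1342 nt over all genes tested. The part of length in these differences was not tested beyond removing the length trend, and the values after removal are given beside the groups of short genes below.

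**Figure D1:**
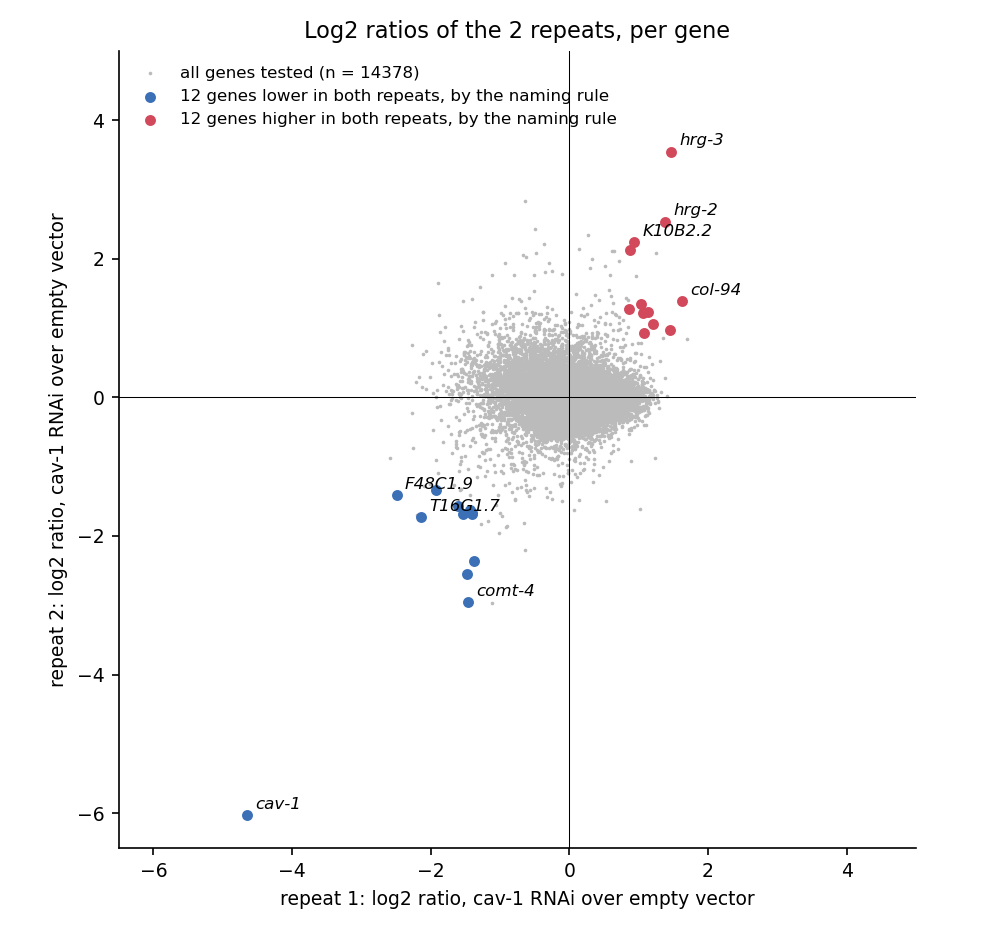
Log2 ratio of cav-1 RNAi to empty vector in repeat 1 (x axis) and repeat 2 (y axis), with 1 point per gene for the 14378 genes tested and the 12 genes most lower and 12 most higher in both repeats in colour. The cloud of all genes shows no shared direction (Pearson correlation -0.05), and cav-1 lies alone at -4.65 and -6.03.

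The genes described next are the 12 with the largest lower and the 12 with the largest higher level that held in both repeats, where the 4 libraries averaged 5 CPM or more. Apart from cav-1 none of them was called, with adjusted p from 0.0879 to 0.677 among the lower and from 0.213 to 0.593 among the higher genes by limma. They were chosen on this contrast, so their direction in both repeats is no finding. The lower set ended with nlp-34 (-1.93 and -1.34 in repeats 1 and 2), and far-7 (-1.58 and -1.33) was the first gene outside it. The higher set ended with dct-17 (0.86 and 1.28), and R07E5.4 (1.36 and 0.86) was the first outside. After cav-1, log2 differences in the lower set ran from -2.21 to -1.53, or from -2.12 to -1.40 with the length trend removed. In the higher set they ran from 1.00 to 2.51.

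The lower set holds several enzymes. comt-4, of the catechol-O-methyltransferase family, stood at 46.9 and 26.1 CPM on the empty vector and at 16.44 and 2.49 CPM on cav-1 RNAi. Each cav-1 RNAi library was below both empty vector libraries, and the log2 difference was -2.21 (SE 0.33, adjusted p = 0.108). On daf-2 RNAi comt-4 stood at 367 and 138 CPM, and cav-1 RNAi minus daf-2 RNAi was -4.86 on the log2 scale (adjusted p = 3.68e-05 by limma).

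cyp-34A9, a cytochrome P450 of the kind that oxidises lipids and foreign compounds, stood at 95.7 and 39.9 CPM on the empty vector and at 32.4 and 11.7 CPM on cav-1 RNAi. The groups did not overlap, and the log2 difference was -1.61 (SE 0.27, adjusted p = 0.134). cpr-1, a cathepsin B-like cysteine protease, stood at 268 and 570 CPM on the empty vector and at 87.3 and 191 CPM on cav-1 RNAi, close to the same share in each repeat (32.6% and 33.5%). Its groups did not overlap either. The log2 difference was -1.59 with an SE of 0.44 (adjusted p = 0.593 by limma) in the fit of all 6 libraries, where cpr-1 stood at 448 and 208 CPM on daf-2 RNAi. With the 4 libraries alone the difference was -1.57 with an SE of 0.31 (adjusted p = 0.000316 by limma). That fit has 1 residual degree of freedom and takes each gene's spread from a trend over all genes. Its p therefore does not measure the spread of cpr-1 itself.

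Small proteins linked to defence formed the second block of the lower set. thn-1, a thaumatin-like protein of the pathogen response, stood at 8.01 and 14.5 CPM on the empty vector and at 2.49 and 2.02 CPM on cav-1 RNAi, without overlap. nlp-34, an antimicrobial peptide of the epidermis, stood at 41 and 6.995 CPM on the empty vector and at 10.04 and 2.16 CPM on cav-1 RNAi. fipr-22, of the fungus-induced-protein-related family, stood at 31.4 and 10.2 CPM and at 11.23 and 2.49 CPM. For nlp-34 and fipr-22 each repeat was lower under cav-1 RNAi, but repeat 1 of cav-1 RNAi was above repeat 2 of the empty vector, so the groups overlapped.

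dct-8, which was named for control by DAF-16, and its neighbour F56D6.8 lie 639 bases apart on opposite strands of chromosome IV. dct-8 stood at 324 and 72.4 CPM on the empty vector and at 120 and 22.8 CPM on cav-1 RNAi. F56D6.8 stood at 271 and 91.9 CPM and at 102 and 28.1 CPM. The remaining shares were 37% and 31.4% for dct-8 and 37.7% and 30.6% for F56D6.8. Both had overlapping groups for the reason given above for nlp-34. Both were lower under cav-1 RNAi than under daf-2 RNAi, with log2 differences of -1.88 (adjusted p = 0.00103) and -1.87 (adjusted p = 0.00148).

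T16G1.7, F42A10.7 and F48C1.9 completed the lower set, all without overlap between the groups. T16G1.7 stood at 50.3 and 19.2 CPM on the empty vector and at 10.6 and 5.08 CPM on cav-1 RNAi. Its levels on daf-2 RNAi were 25.9 and 1.63 CPM, also below the empty vector in each repeat. T16G1.7 is the first of 4 genes in a row on the minus strand of chromosome V, with 425, 399 and 588 bases between them. The other 3, named after their values were seen, were lower as well, with log2 differences of -1.23 for T16G1.6, -0.86 for T16G1.5 and -1.16 for T16G1.4 and adjusted p of 0.303 or more. Of the 12 genes of the lower set, 8 had groups without overlap (5.35% of all genes tested lay lower without overlap) and 7, cav-1 among them, were called lower under cav-1 RNAi than under daf-2 RNAi (6.87% of all genes tested were). Nothing is read from either count, since the genes were chosen for low levels in the same cav-1 RNAi libraries, and the same holds for the comparisons of single genes of the set with daf-2 RNAi.

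**Figure D2:**
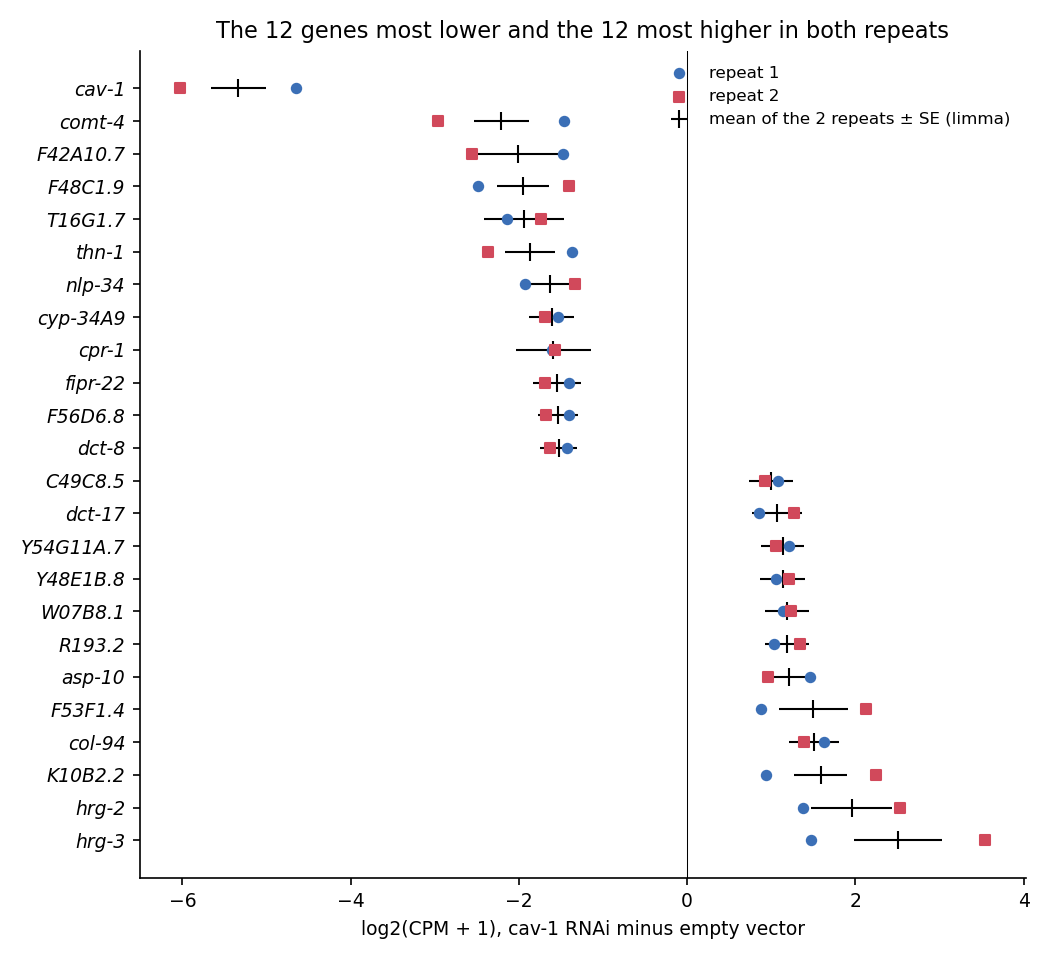
Difference between cav-1 RNAi and empty vector on the log2(CPM + 1) scale for the 24 named genes, with circles for repeat 1, squares for repeat 2 and the mean with its SE from limma. cav-1 stands apart at -5.34, the other lower genes lie between -2.21 and -1.53, and hrg-3 has the widest spread between repeats, 1.47 and 3.55.

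Heme-responsive genes headed the higher set. hrg-3, a small secreted protein that carries heme out of the intestine, stood at 2.54 and 0.0736 CPM on the empty vector and at 8.80 and 11.5 CPM on cav-1 RNAi. Both cav-1 RNAi libraries were above both empty vector libraries, and the log2 difference was 2.51 (SE 0.52, adjusted p = 0.285). The lowest of these levels rests on 2 reads, and the difference was 1.26 without the empty vector library of repeat 2 and 3.76 without that of repeat 1. hrg-2, a heme-binding membrane protein of the hypodermis, stood at 13 and 5.49 CPM on the empty vector and at 35.5 and 36.6 CPM on cav-1 RNAi, again without overlap, and the log2 difference was 1.96 (SE 0.48, adjusted p = 0.439), or 0.99 and 2.92 without those same libraries. On daf-2 RNAi, hrg-2 stood at 20.9 and 65.2 CPM and hrg-3 at 1.88 and 5.66 CPM.

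The remaining heme genes were looked at after these values were seen. hrg-4, a heme importer of the intestine, stood at 16.9 and 4.34 CPM on the empty vector and at 20.9 and 18.5 CPM on cav-1 RNAi. hrg-1, the importer of the endolysosome, stood at 78.1 and 81.8 CPM and at 116 and 99.3 CPM. mrp-5, the heme exporter, stood at 84.5 and 246 CPM and at 97 and 427 CPM. All 3 were higher in both repeats, with log2 differences of 1.08, 0.42 and 0.50, and each had an adjusted p of 0.977 by limma. Of the 5 hrg genes tested, 4 were higher in both repeats (20.8% of all genes tested). Among them hrg-2 and hrg-3 were chosen for that direction, so nothing is read from this count or from the median of the 5. hrg-6 had log2 ratios of -0.24 in repeat 1 and 0.46 in repeat 2, and those of hrg-4 were 0.29 and 1.87. The median of the 5 was 1.08 for cav-1 RNAi minus empty vector. It was 1.04 for daf-2 RNAi minus empty vector, which uses the same empty vector libraries, and 0.08 for cav-1 RNAi minus daf-2 RNAi.

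Cuticle and protease genes followed. col-94, a cuticle collagen, stood at 2.07 and 9.79 CPM on the empty vector and at 8.5 and 27.3 CPM on cav-1 RNAi, with the repeats so far apart that the groups overlapped (log2 difference 1.51, SE 0.30, adjusted p = 0.213). col-93, which lies 1198 bases from it on the same strand of chromosome III, stood at 89.98 and 412 CPM and at 294 and 741 CPM. Collagens are close paralogs, so reads may be split between them. asp-10, an aspartyl protease, stood at 503 and 839 CPM on the empty vector and at 1384 and 1639 CPM on cav-1 RNAi, without overlap (log2 difference 1.21, SE 0.26, adjusted p = 0.303).

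K10B2.2 stood at 24.1 and 11.6 CPM on the empty vector and at 46.9 and 58.3 CPM on cav-1 RNAi, without overlap (log2 difference 1.59, SE 0.31, adjusted p = 0.213). R193.2, the longest transcript of the set at 5916 nt, stood at 40.2 and 124 CPM and at 83.3 and 317 CPM. The other 6 genes of the higher set, W07B8.1, Y54G11A.7, Y48E1B.8, C49C8.5, dct-17 and F53F1.4, were at 186% to 557% of the empty vector level in each repeat. Of the 12 genes, 9 had groups without overlap (5.58% of all genes tested lay higher without overlap), which the choice of these genes largely fixes. Against daf-2 RNAi, col-94 alone was called, with a log2 difference of -1.35 (adjusted p = 0.0191 by limma). Averaged over the repeats, all genes of the higher set also lay higher under daf-2 RNAi than on the same empty vector libraries. Those log2 differences ran from 0.56 for R193.2 to 2.86 for col-94, with 2.44 for K10B2.2 and 1.14 for asp-10. In repeat 1, hrg-3 (1.88 against 2.54 CPM) and F53F1.4 (1.88 against 2.07 CPM) were lower on daf-2 RNAi than on the empty vector. Nothing is read from the shared direction, since the genes were chosen for low levels in these empty vector libraries relative to cav-1 RNAi.

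The 20 genes that the test called under size factors were also called with TMM factors over all genes and with the 4 libraries alone. These fits share their libraries, and the latter 2 called more genes (64 and 82), so the shared calls are no independent support. The main fit called cav-1 alone. The 20 genes include 9 of the lower set (cav-1, comt-4, cyp-34A9, dct-8, F48C1.9, F56D6.8, fipr-22, nlp-34, thn-1) and hrg-3 and K10B2.2 of the higher set. On the lower side the 20 also include acs-2, cnc-6 and cyp-14A3, named as members of their lists. The others, named after their values were seen, were fipr-26, scl-11, spp-9 and ZK970.7 on the lower side and F44G3.2 and nep-8 on the higher side. nep-8, of the neprilysin family of peptidases, stood at 0.0781 and 0.368 CPM on the empty vector and at 1.57 and 4.79 CPM on cav-1 RNAi, without overlap and at a low level in all 4 libraries.

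Among genes of fat use, acs-2 had the largest difference. acs-2, an acyl-CoA synthetase that feeds fatty acids into mitochondrial oxidation and a known target of the nuclear receptor NHR-49, stood at 47.3 and 66.9 CPM on the empty vector and at 21.2 and 7.64 CPM on cav-1 RNAi. The groups did not overlap, and the log2 difference was -2.05 (SE 0.38, adjusted p = 0.161). fat-7, a stearoyl-CoA desaturase, stood at 4.45 and 3.50 CPM and at 1.75 and 1.15 CPM, and its paralog fat-6 at 1487 and 1186 CPM and at 1171 and 662 CPM. fil-1, a lipase induced by fasting, stood at 3.95 and 3.35 CPM and at 1.78 and 0.685 CPM. These 4 genes lay lower without overlap, as did 11 of the 55 genes of fat synthesis and storage, while 6 lay higher without overlap (5.35% and 5.58% of all genes tested). The list had a median of -0.06, with 22 members lower and 10 higher in both repeats (24.1% and 20.8% of all genes tested).

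Sphingolipids are partners of caveolins in membranes, and the genes of their enzymes were more often higher than lower. Of the 25 genes tested, 12 (48%) were higher and 5 (20%) lower in both repeats, against 20.8% and 24.1% of all genes tested. The median was 0.10. At an unadjusted p under 0.05 by limma, 0 were higher and 3 lower (1.22% and 2.76% of all genes tested). The largest difference in the list was that of gba-2, a glucosylceramidase, which stood at 25.6 and 25.1 CPM on the empty vector and at 13.2 and 6.201 CPM on cav-1 RNAi (log2 difference -1.38, SE 0.30, adjusted p = 0.318). asah-1, an acid ceramidase, stood at 98.3 and 154 CPM and at 50.1 and 71.5 CPM. Both genes lay lower without overlap. On daf-2 RNAi gba-2 stood at 1.13 and 0.514 CPM, and cav-1 RNAi minus daf-2 RNAi was 2.50 on the log2 scale (adjusted p = 0.00119 by limma).

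DAF-16 class 1 genes, which rise with less insulin signalling, were mostly lower under cav-1 RNAi than on the empty vector. None of the 26 genes tested was called, 20 of 26 (76.9%) were lower in both repeats against 24.1% of all genes tested, and 1 was higher in both. The list had a median of -0.43, with -0.47 in repeat 1 and -0.49 in repeat 2, against -0.01 over all genes, and its median ran from -0.55 to -0.36 over the 15 alternatives. sodh-1, an alcohol dehydrogenase, stood at 97.2 and 140 CPM on the empty vector and at 47.8 and 35.3 CPM on cav-1 RNAi. ctl-2, the peroxisomal catalase, stood at 71.2 and 104.1 CPM and at 30.2 and 47 CPM. Neither gene had overlapping groups. sodh-1 was also below the empty vector on daf-2 RNAi, at 54.8 and 46.1 CPM. Its difference for cav-1 RNAi minus daf-2 RNAi was -0.29 (adjusted p = 0.449 by limma). ctl-2 was above the empty vector there, at 154.5 and 138.5 CPM.

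Other members of the class differed less or not in the same direction. dod-3 stood at 70.2 and 61.5 CPM on the empty vector and at 46.8 and 23.8 CPM on cav-1 RNAi. mtl-1, a metallothionein, stood at 431 and 180 CPM and at 261 and 137 CPM, lower in each repeat with overlap across repeats. sod-3, a mitochondrial superoxide dismutase, stood at 12.07 and 13.2 CPM and at 15.3 and 13.7 CPM, slightly higher in each repeat. On daf-2 RNAi mtl-1 stood at 1736 and 607 CPM and sod-3 at 53.5 and 60.4 CPM.

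Set against daf-2 RNAi instead, class 1 gave calls. Of the 26 genes, 21 were called lower under cav-1 RNAi than under daf-2 RNAi and 1 higher, where 988 (6.87%) of all genes tested were called lower and 538 (3.74%) higher. The median of the list was -1.42 for cav-1 RNAi minus daf-2 RNAi, and 0.93 for daf-2 RNAi minus empty vector. The comparisons of both RNAi treatments with the empty vector share its libraries. The 13 class 2 genes tested, the opposite class, gave medians of -0.10 for cav-1 RNAi minus empty vector and 1.01 for cav-1 RNAi minus daf-2 RNAi, with 6 called higher in the latter. These class lists were drawn from work on daf-2, so their direction on daf-2 RNAi is what defines them.

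The genes of the insulin pathway themselves had small differences. Of the 28 tested, 14 were higher and 1 lower in both repeats, the median was 0.12, and none was called. daf-16 stood at 71.7 and 137 CPM on the empty vector and at 93.8 and 179 CPM on cav-1 RNAi, a log2 difference of 0.39 (SE 0.22, adjusted p = 0.977). The 26 insulin-like peptides tested had a median of -0.05.

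**Figure D3:**
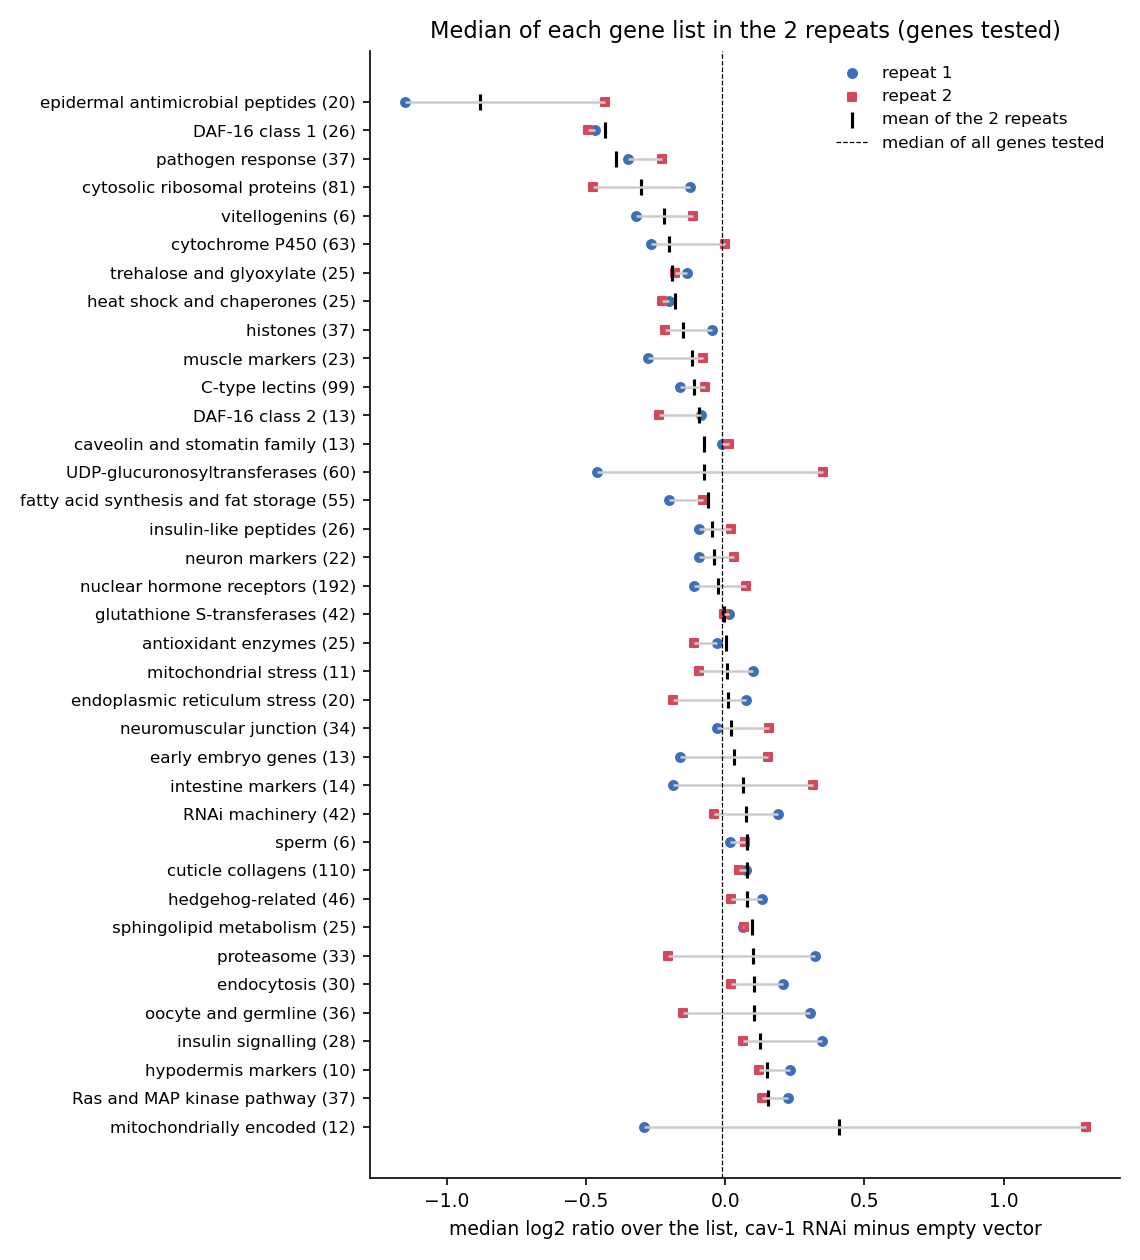
Median log2 ratio of cav-1 RNAi to empty vector over each gene list, with circles for repeat 1, squares for repeat 2, bars for the mean of the 2 repeats and the number of genes tested in parentheses; the dashed line is the median of all genes tested. Epidermal antimicrobial peptides (-0.88) and DAF-16 class 1 (-0.43) lie farthest to the left, and mitochondrially encoded genes have medians of -0.29 and 1.29 in the 2 repeats.

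Epidermal antimicrobial peptides, the nlp and cnc peptides made by the skin after fungal infection or wounding, had the lowest median of the lists. Of 20 genes tested none was called, 11 had an unadjusted p under 0.05, all lower (2.76% of all genes tested), and 12 were lower and 1 higher in both repeats (24.1% and 20.8% of all genes tested). The median was -0.88, with -1.15 in repeat 1 and -0.43 in repeat 2, and it was -0.76 with the length trend removed, since the median transcript length of the list was 374 nt. cnc-6 stood at 11.7 and 2.13 CPM on the empty vector and at 2.43 and 0.469 CPM on cav-1 RNAi. cnc-4 stood at 69.98 and 19.96 CPM and at 32.05 and 7.71 CPM. nlp-29, the member most used as a reporter, stood at 88.1 and 18.3 CPM and at 36.1 and 12.15 CPM.

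In these 3 peptides each repeat was lower under cav-1 RNAi, but repeat 1 of cav-1 RNAi exceeded repeat 2 of the empty vector. No member of the list lay lower without overlap, and 1 lay higher without overlap (5.35% and 5.58% of all genes tested). Summed over the list, the level was 762 and 205 CPM on the empty vector and 428 and 189 CPM on cav-1 RNAi, so the repeats of the empty vector differed more than the treatments did in repeat 2. nlp-24 was the member with the largest difference upwards, at 13.3 and 10.4 CPM on the empty vector and 14.8 and 18.8 CPM on cav-1 RNAi.

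The fipr and fip genes, a neighbouring class of fungus-induced small proteins, were looked at after the values of fipr-22 were seen. Of 16 tested, 9 were lower and 2 higher in both repeats (24.1% and 20.8% of all genes tested). The medians were -0.58 in repeat 1 and -0.06 in repeat 2. Their summed level was 163 and 58.9 CPM on the empty vector and 92.0 and 58.8 CPM on cav-1 RNAi. fipr-13 and fipr-21 were lower in repeat 1 and higher in repeat 2, with log2 differences of 0.06 and 0.25. fipr-23, fipr-22 and fipr-24 lie side by side on chromosome I, with 1233 and 1274 bases between neighbours. fipr-24 stood at 7.93 and 1.92 CPM on the empty vector and at 3.70 and 0.216 CPM on cav-1 RNAi, and fipr-26 at 8.52 and 2.43 CPM and at 2.01 and 0.433 CPM. Near-identical members of this family may share reads.

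Genes of the response to bacterial pathogens lay lower too. Of 37 tested none was called, 23 (62.2%) were lower and 7 higher in both repeats, and the median was -0.39 (-0.29 with the length trend removed). dod-24 stood at 72.4 and 26.6 CPM on the empty vector and at 31.5 and 6.99 CPM on cav-1 RNAi. spp-12, a saposin-like antimicrobial protein, stood at 3.98 and 2.13 CPM and at 0.681 and 0.721 CPM, without overlap. F35E12.5 stood at 17.7 and 8.98 CPM and at 6.398 and 3.50 CPM, also without overlap. On daf-2 RNAi, spp-12 stood at 18.1 and 10.5 CPM and dod-24 at 2.67 and 1.603 CPM, so these members lay on opposite sides of the cav-1 RNAi level there.

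Detoxifying enzymes differed between families and repeats. The 63 cytochrome P450 genes had medians of -0.26 in repeat 1 and 0.00 in repeat 2. In both repeats 21 were lower and 14 higher (24.1% and 20.8% of all genes tested). At an unadjusted p under 0.05 by limma, 11 P450 genes lay lower and 1 higher (2.76% and 1.22% of all genes tested). Without overlap, 14 lay lower and 3 higher (5.35% and 5.58% of all genes tested). The median of -0.20 stayed below 0 in all 15 alternatives. cyp-14A3, outside the lower set only because its mean level was under 5 CPM, stood at 11.06 and 4.34 CPM on the empty vector and at 1.63 and 0.649 CPM on cav-1 RNAi, close to the same share in each repeat (14.7% and 14.9%), without overlap. cyp-14A3 was below the empty vector on daf-2 RNAi as well, at 2.84 and 0.212 CPM. The 60 UDP-glucuronosyltransferases had medians of -0.46 and 0.35 in the 2 repeats, and the 42 glutathione S-transferases had 0.02 and -0.01.

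Cuticle collagens, which make up most of the worm's outer layer, were more often higher than lower. Of 110 tested, 43 (39.1%) were higher and 25 (22.7%) lower in both repeats, against 20.8% and 24.1% of all genes tested, and the median was 0.08. col-160 stood at 330 and 544 CPM on the empty vector and at 645 and 845 CPM on cav-1 RNAi. col-179 stood at 77.0 and 72.5 CPM and at 139 and 147 CPM. Both had groups without overlap. col-183 went the other way, at 37.4 and 11.8 CPM on the empty vector and at 14.9 and 2.60 CPM on cav-1 RNAi. Against daf-2 RNAi, 26 of the 110 collagens were called lower and 1 higher under cav-1 RNAi, where 6.87% and 3.74% of all genes tested were.

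**Figure D4:**
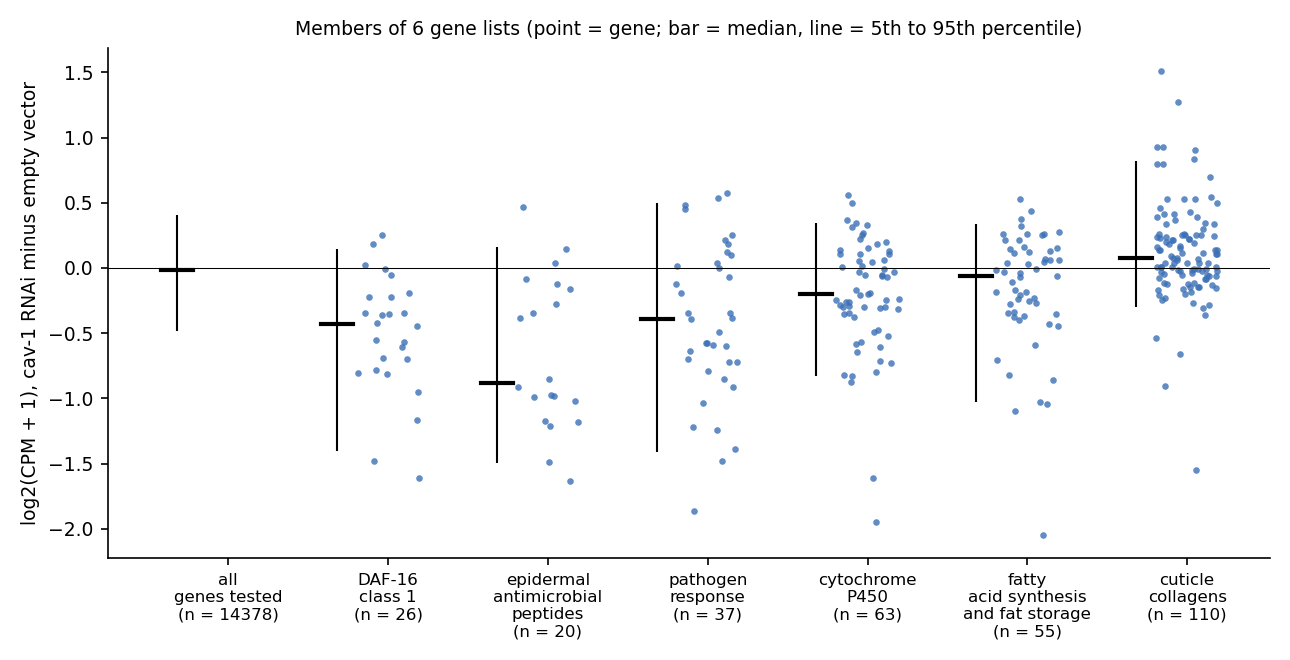
Difference between cav-1 RNAi and empty vector on the log2(CPM + 1) scale for the members of 6 lists, with 1 point per gene and, at the left of each list and for all genes tested, the median (bar) and the 5th to 95th percentile (line). The medians are -0.43 for DAF-16 class 1, -0.88 for epidermal antimicrobial peptides, -0.39 for pathogen response and 0.08 for collagens, and single members such as acs-2 at -2.05 lie far from their list.

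In the Ras and MAP kinase pathway, through which CAV-1 is known to act in the germ line, differences were small. Of 37 genes tested, 20 (54.1%) were higher and 2 lower in both repeats, the median was 0.16 (0.11 with the length trend removed), and none was called. sem-5, the adaptor that links receptors to Ras, stood at 36.9 and 30.4 CPM on the empty vector and at 67.6 and 40.1 CPM on cav-1 RNAi, without overlap. let-60, the Ras gene, stood at 103.7 and 48.08 CPM and at 129 and 62.2 CPM. mpk-1, the ERK kinase, stood at 75.1 and 125 CPM and at 100 and 148 CPM. let-23, the EGF receptor, stood at 23.4 and 8.98 CPM and at 8.26 and 11.3 CPM, lower in repeat 1 and higher in repeat 2.

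Endocytosis genes, which handle membrane uptake, had a median of 0.10, with 13 of 30 higher and 3 lower in both repeats. rab-5, the GTPase of early endosomes, stood at 104.2 and 124 CPM on the empty vector and at 165 and 153 CPM on cav-1 RNAi, without overlap. The 34 neuromuscular junction genes had a median of 0.02, with -0.03 and 0.16 in the 2 repeats, and unc-18, needed for synaptic vesicle release, stood at 14.2 and 35.4 CPM on the empty vector and at 25.5 and 46.0 CPM on cav-1 RNAi.

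Heat shock and chaperone genes had a median of -0.18, with 13 of 25 lower and 1 higher in both repeats. hsp-70 stood at 52.01 and 36.04 CPM on the empty vector and at 31.9 and 19.3 CPM on cav-1 RNAi, without overlap. Ribosomal protein genes formed the list with the most uniform sign. Of 81 tested, 80 had a difference below 0 and 51 were lower in both repeats, with medians of -0.12 and -0.48, and none was called. Their transcripts are short (median 520 nt), and the median of the list went from -0.30 to -0.18 with the length trend removed.

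Egg proteins and germline genes differed more between repeats than between treatments. The vitellogenins, yolk proteins made in the intestine, had a summed level of 42930 and 81880 CPM on the empty vector and of 33240 and 71950 CPM on cav-1 RNAi. The 36 oocyte and germline genes had medians of 0.30 in repeat 1 and -0.15 in repeat 2, and 10 were higher and 4 lower in both. mex-6, a maternal RNA-binding protein, stood at 189 and 442 CPM on the empty vector and at 398 and 486 CPM on cav-1 RNAi.

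The mitochondrially encoded genes went in opposite directions in the 2 repeats. Their summed level was 38840 and 4689 CPM on the empty vector and 26000 and 15040 CPM on cav-1 RNAi, so the empty vector library of repeat 2 was far below the others. Their medians were -0.29 in repeat 1 and 1.29 in repeat 2. Without the empty vector library of repeat 2, or without the cav-1 RNAi library of repeat 2, the sign of the list's median turned. The part of this library in the results above was not tested beyond leaving it out. That fit has 1 residual degree of freedom and takes each gene's spread from a trend over all genes. Its count of called genes is therefore not given.

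Marker lists of the tissues had medians between -0.12 and 0.15, and none of their genes was called. Muscle markers had a median of -0.12, with 12 of 23 (52.2%) lower and 2 higher in both repeats, against 24.1% and 20.8% of all genes tested. Hypodermis markers, from the tissue that makes the cuticle, had a median of 0.15, with 6 of 10 (60%) higher and 0 lower in both repeats. Without overlap, 3 lay higher and 0 lower (5.58% and 5.35% of all genes tested). Neuron markers had a median of -0.04 and intestine markers 0.07. Summed levels of the hypodermis markers were 98.4 and 193 CPM on the empty vector and 118 and 214 CPM on cav-1 RNAi, and those of the intestine markers 1391 and 2653 CPM and 1086 and 2454 CPM. The intestine sums include cpr-1 of the lower set, chosen for its fall, at 268 and 570 CPM and at 87.3 and 191 CPM. Of the 14 intestine markers tested, 4 had a difference below 0 and 10 above 0. The part of tissue makeup in the differences of epidermal and intestinal genes was not tested.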

How the data were processed

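The deposited table held whole-number values per gene for 6 libraries, read counts given by the authors with no normalization; 494 of 46748 genes (1.06%) carry a mark in place of a value and were left out. Because of these marks the columns were treated as another unit than counts in the sense of a count model, and count models were not used. Per the labels' protocols, libraries were made from total RNA with a stranded mRNA kit; the use of strand in counting is not given in the sources used here. Tools are named in the submitters' processing notes: the build WBcel235 and, without roles, Cufflinks 2.2.1, DESeq2 1.10.1, TopHat2 2.0.13, cutadapt 1.7.1 and bcl2fastq 2.15.0.4. The authors' fold changes and p-values were not used.

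Genes with at least 0.348 CPM in 2 libraries and 15 counts in all were kept (14378 genes, at least 99.95% of each library's counts). TMM factors ran from 0.92 to 1.04. limma 3.58.1 in R 4.3.3, with an intensity trend, was fitted to log2(CPM + 1) of all 6 libraries, with the repeat number as a block (2 residual and 8.68 prior degrees of freedom), and p-values were adjusted over all genes tested at a threshold of 0.05. The study's design text gives each repeat 1 library of every kind, and same-numbered libraries deviated together (correlations 0.807, 0.891 and 0.812), so the numbers pair the samples. Named genes are cav-1, cav-2, daf-2, the 12 lower and 12 higher genes with the largest smaller-of-2 repeat ratios in 1 direction at a mean of 5 CPM or more, and per list the 4 genes with the smallest p on the side of its median. Other genes were chosen after their values were seen. Members, lists and rules were chosen with earlier results of these data known. The fit was tested on simulated data. Gene positions and lengths are from the Ensembl annotation of WBcel235.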

Additional observations from a re-analysis of the deposited data

How the results depend on the processing

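With 2 pairs, limma called cav-1 alone against the empty vector. That number became 0 with no replicate block (smallest adjusted p 0.7503, 36 genes at an unadjusted p under 0.05), 82 with only the 4 libraries (1 residual degree of freedom), 20 with median-of-ratios size factors, 2 with a pseudocount of 0.25 CPM and, chosen after seeing the data, 64 with TMM factors from all genes with a count. It stayed at 1 under total-count scaling, the stricter filter, no filter and the length trend removed with the block. The fit of only the 4 libraries took each gene's spread from the trend over all genes. Leaving out 1 library gave 0 to 402 genes. Against daf-2 RNAi, 1526 genes became 0 with no replicate block, 3142 with size factors (1936 higher and 1206 lower, where 538 were higher and 988 lower before), 342 with no filter, 3236 with TMM factors from all genes and 68 to 4206 with 1 library left out. The log2 fold change of cav-1 stayed between -5.94 and -4.74 under all alternatives; with no replicate block it was -5.34 and not called, and leaving out a library it ran from -5.94 to -4.74, with the call lost only without cav-1 RNAi repeat 1. Leaving out 1 library turned the sign of cav-2 (range -0.62 to 0.25; 0.25 without empty vector repeat 1 and 0.24 without cav-1 RNAi repeat 1) and of daf-2 (range -0.23 to 0.85; -0.23 without empty vector repeat 1 and -0.12 without cav-1 RNAi repeat 2). The medians of DAF-16 class 1, epidermal antimicrobial peptides, pathogen response, ribosomal proteins, heat shock, collagens and the Ras pathway kept their sign in all 15 alternatives run; among the others printed, that of glutathione S-transferases turned in 9, those of UDP-glucuronosyltransferases, neuromuscular junction and neuron markers in 3, those of oocyte and germline, intestine markers and mitochondrially encoded genes in 2, and those of class 2, fat synthesis and storage, insulin-like peptides and vitellogenins in 1. A count model (edgeR or DESeq2) was planned only if the columns could be named counts and was not run. The causes were not tested. With 2 pairs of libraries, genes below a few CPM rest on few reads.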

Other observations

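Other secreted and lipid-binding families lay lower in the same samples; they were chosen after their values were seen. Of the 8 far genes, which encode fatty acid and retinol binding proteins, far-7 having been seen first, 6 were lower in both repeats and 0 higher in both (24.1% and 20.8% of all genes tested), and 2 were lower at an unadjusted p under 0.05 (2.76% of all genes tested). far-3 stood at 1375 and 510 CPM on the empty vector and at 751 and 216 CPM on cav-1 RNAi, and far-7 at 29.3 and 11.9 CPM and at 9.18 and 4.11 CPM. Of the 14 scl genes tested, which encode secreted proteins of the cysteine-rich CAP family, 10 were lower and 1 higher in both repeats. None of these genes was called.

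On the higher side, cth-1, a cystathionine gamma-lyase, and F44G3.2 lie 1143 bases apart on the same strand of chromosome V. cth-1 stood at 8.87 and 5.56 CPM on the empty vector and at 15.2 and 24.5 CPM on cav-1 RNAi. F44G3.2 stood at 0.195 and 0.368 CPM and at 1.33 and 3.60 CPM. Both had groups without overlap, with adjusted p of 0.439 and 0.134 by limma.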
